A study of Homo sapiens with 47 samples.

Results

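Clones C3, C5 and C6 are the NUP58-mutated clones that the study scored as having a nuclear import defect, and their transcriptomes were set against those of clones C1, C2 and C4, which were not so scored. The 6 clones gave 24 RNA-seq libraries, 12 in each class and 4 from each clone, out of 47 libraries in the series. HAP1, a human line derived from chronic myeloid leukemia, carries close to a single set of chromosomes and grows attached to the dish. Each clone grew from a single HAP1 cell after transfection with a vector carrying Cas9 and 2 guide RNAs against NUP58, so a clone is 1 edited line with its own alleles, and all 6 carry a NUP58 mutation. The wild-type line (WT) and a line that received the Cas9 vector with no guide RNA (EV) gave 4 libraries each and belong to neither class. The class came from an imaging assay of an import reporter brought into the clones after they were derived, not from the RNA, and in C3 the reporter signal was mixed from cell to cell. C1, C2 and C4 showed no significant impairment in that assay, which was 1 experimental replicate. The paper proposes that mutant cells might evolve rapidly while the reporter is introduced, perhaps hiding a defect in some clones. The RNA came from bulk cultures at the first passage, in which fewer cells with a given level and less RNA in every cell cannot be told apart.

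Proteins larger than the diffusion limit cross the nuclear envelope through nuclear pore complexes, rings built from nucleoporins. NUP58 lines the central channel together with NUP54 and NUP62, and the phenylalanine-glycine repeats of these proteins form the barrier through which transport receptors pass. The receptors are the karyopherins, of which importins bring cargo in and exportins carry it out, and the small GTPase Ran sets the direction by loading and unloading them.

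Levels were FPKM, that is, fragments scaled to the length of the transcript and to the mapped fragments of the library. A difference between the classes is the mean of the 3 import-defect clones minus the mean of the other 3 of log2(FPKM + 1), a scale on which changes of genes near 0 are compressed. The clone was the unit, and 13186 genes with a mean of at least 1 FPKM were tested with limma. In the comparison of all 6 clones each gene named had an adjusted p of at least 0.80 in limma (Benjamini-Hochberg). This does not hold for fits that left out a clone. FPKM values keep no read totals. The spacing of the lowest values put the depth of the import-defect libraries at 0.765 to 1.01 of that of the first WT library and of the other clones' libraries at 0.760 to 1.14. BCR and ABL1, the genes joined in this leukemia, stood at 5.39 to 6.90 and 11.7 to 17.2 FPKM in the clones, and 11 of 12 blood cell markers averaged under 1 FPKM in each class. Among markers of the study's other line, HCT116, EPCAM averaged 14.6 FPKM in C5 against 0.362 to 0.514 in the other clones. CDX2 (5.18 against 3.05 to 4.35 FPKM) and CLDN3 (4.13 against 2.09 to 3.27 FPKM) were also highest in C5 among the clones. KRT8 and KRT18 were higher in C3 than in C5 (10.1 against 2.54 and 29.7 against 25.6 FPKM). KRT20 and VIL1 averaged 0.0 in C5, but they reached only 0.0245 and 0.178 FPKM at most in any HAP1 line. The summed level of all 13 such markers was 24.3 to 55.5 FPKM in the import-defect libraries and 27.0 to 41.0 in the others, and its part in the class differences was not tested.

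NUP58, the edited gene, was lower in all 6 clones than in WT and did not separate the classes. It is on chromosome 13 (chr13:25301524-25365390, plus strand, GRCh38). WT held 34.3, 34.7, 50.4 and 45.8 FPKM in its 4 libraries, and EV held 35.3, 37.7, 45.0 and 43.2. In C3 the libraries held 15.03, 10.7, 13.7 and 11.6 FPKM, in C5 18.2, 11.9, 22.1 and 10.3, and in C6 15.8, 18.5, 14.3 and 13.04. Each of these 12 values lay below every WT and EV library. Among the other clones, C1 held 11.3, 9.10, 10.2 and 9.96, C2 held 7.98, 10.7, 11.5 and 8.99, and C4 held 25.4, 22.6, 28.0 and 25.9 FPKM. C4 thus stood above the other 5 clones. Every C6 library lay above every C1 and C2 library, while C3 and C5 overlapped C1 and C2. The paper describes all NUP58 transcripts of C1, C2, C3 and C5 as ending early. For C4 and C6 it describes the skipping of an exon in only some transcripts. FPKM per gene may therefore not stand for the same transcript in each clone. What this does to the order of the clones and to the class difference, with or without C4, was not tested. The class means were 14.6 ± 1.59 (SD, n = 3 clones) and 15.1 ± 8.95 FPKM, with a log2 difference of 0.06 ± 0.33 (SE) and an exact permutation p of 1.0, where 20 arrangements of the clones allow no p below 0.1. The value rests on C4: without it the difference was 0.48 ± 0.12, past the unadjusted limma limit of 0.05, with NUP58 higher in the import-defect clones than in C1 and C2.

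**Figure D1:**
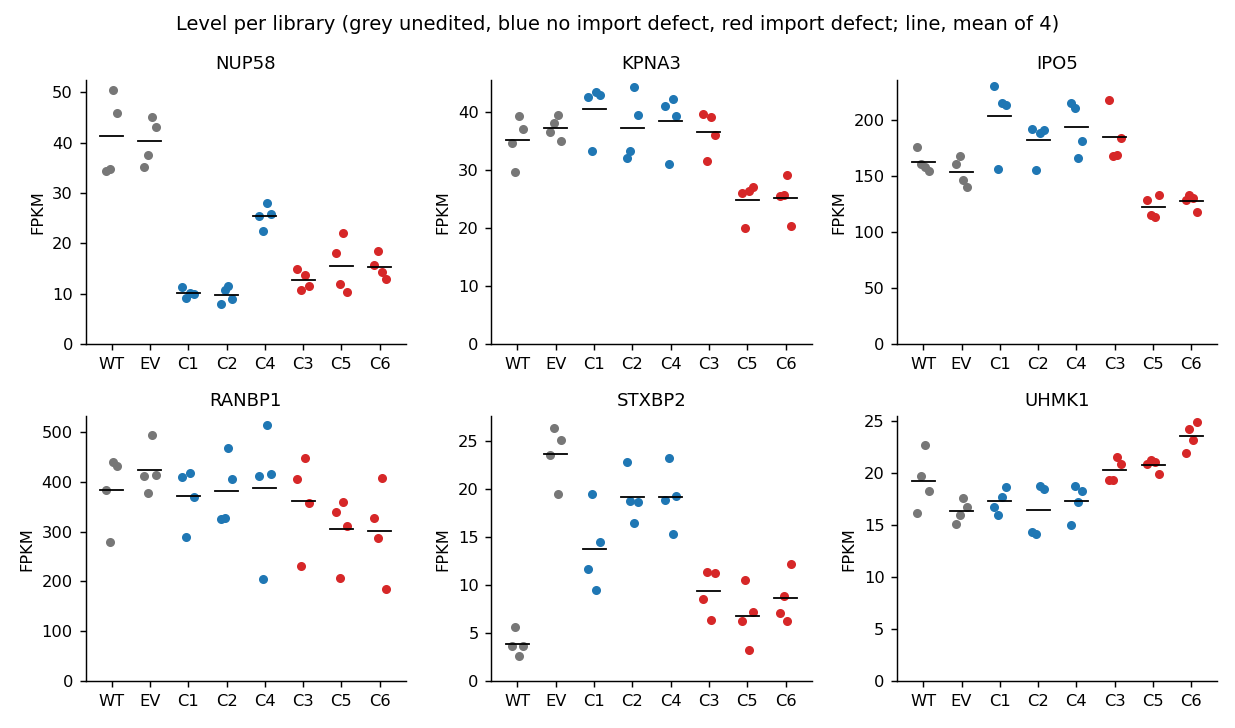
FPKM of 6 genes in every HAP1 library: each point is 1 library, each line the mean of 4. WT and EV are grey, clones not scored as having an import defect blue and import-defect clones red. NUP58 is lower in every clone than in WT and EV, KPNA3 and IPO5 are lower in C5 and C6 but not in C3, STXBP2 differs more between WT and EV than between the classes, and the 12 red points of UHMK1 lie above the 12 blue ones.

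No class difference was shown for the import receptors KPNA4, KPNB1, TNPO1 and TNPO2, whose log2 differences were 0.06 ± 0.11, -0.13 ± 0.06, 0.04 ± 0.10 and 0.05 ± 0.12 (SE). KPNA4, an importin alpha that reads classical import signals, averaged 22.9 ± 3.05 FPKM in the import-defect clones and 21.9 ± 0.960 in the others (SD, n = 3 clones each; exact permutation p = 0.7). TNPO1 and TNPO2, the transportins, averaged 77.8 ± 7.63 against 75.5 ± 6.52 FPKM (exact permutation p = 0.5) and 92.5 ± 14.9 against 89.5 ± 6.82 FPKM (exact permutation p = 0.9). Against these class values WT held 15.1, 53.1 and 64.8 FPKM of KPNA4, TNPO1 and TNPO2, and each of the 6 clone means lay above both WT and EV for all 3 genes. KPNB1, the importin beta that carries importin alpha through the pore, averaged 244 ± 14.8 FPKM in the import-defect clones and 267 ± 8.55 in the others. Its 3 import-defect means were all below the other 3 (exact permutation p = 0.1, the smallest possible), but the libraries overlapped from 149 to 325 FPKM against 152 to 328. The other channel nucleoporins stood at 38.0 ± 3.38 against 38.6 ± 0.614 FPKM for NUP54 and 62.1 ± 1.26 against 65.7 ± 1.57 for NUP62, and at 40.7 and 67.0 FPKM in WT.

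Across the whole transport machinery few genes reached even an unadjusted limit. None of 31 nucleoporins tested reached an unadjusted limma p of 0.05, a limit that 761 of all 13186 genes reached (5.77%). Their median log2 difference was 0.0405, beside 0.0326 over all genes. Of 26 karyopherins, 1 was higher and 2 were lower at that limit, and of 7 genes of the Ran cycle 2 were lower, beside 4.1% higher and 1.68% lower among all genes. No transport gene passed an adjusted p of 0.05. Without C3 more of them reached an unadjusted 0.05, as did more of all genes (11.9% higher and 5.81% lower). Of the 31 nucleoporins NUP160 (0.23), NUP37 (0.33), NUP35 (0.31) and TPR (0.25) were then higher and NUP50 (-0.21) and POM121 (-0.23) lower, and among importins alpha KPNA5 (0.49) and KPNA6 (0.21) were higher, with limma adjusted p of 0.153 to 0.268 for these 8 genes. Of the Ran cycle RANBP1 (-0.33) and RANGRF (-0.32) were lower, with limma adjusted p of 0.093 and 0.12. KPNA3 and IPO5 were lower too, as given below.

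KPNA3, another importin alpha, and IPO5, an importin that brings in ribosomal proteins and histones, gave the largest differences among the karyopherins, and both are on chromosome 13. KPNA3 (chr13:49699320-49792682) held 26.1, 19.96, 26.3 and 27.1 FPKM in C5 and 25.5, 25.6, 29.2 and 20.3 in C6. In C3 it held 39.6, 31.6, 39.1 and 36.1 FPKM, within the range of 31.1 to 44.3 in the 12 libraries of the other clones. C5 and C6 were thus low and C3 was not. The class difference was -0.43 ± 0.15 (SE). IPO5 (chr13:97953658-98024296) showed the same split, with clone means of 122 and 127 FPKM in C5 and C6, 184 in C3 and 182 to 203 in C1, C2 and C4, for a difference of -0.43 ± 0.15. Without C3 the differences of C5 and C6 from C1, C2 and C4 grew to -0.61 ± 0.07 for both KPNA3 and IPO5 (limma, adjusted p = 0.0641 and 0.0632). Leaving out C1, C4, C5 or C6 instead took the unadjusted p of both genes above 0.05, with differences of -0.44 to -0.32.

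The remaining transport genes at that limit differed less. IPO8, which imports Argonaute and signalling proteins, averaged 18.6 ± 2.27 FPKM in the import-defect clones and 15.4 ± 0.478 in the others, a difference of 0.24 ± 0.10. RANBP1, which helps Ran give up its bound receptor, averaged 322 ± 33.4 against 380 ± 7.93 FPKM, a difference of -0.25 ± 0.08. RANGRF, also called MOG1, which binds Ran in the nucleus, averaged 49.0 ± 4.33 against 58.7 ± 0.790 FPKM, a difference of -0.26 ± 0.08. For RANBP1 the libraries overlapped widely, from 184 to 448 FPKM in the import-defect clones and from 204 to 515 in the others. TMPO, a lamin-binding protein of the inner nuclear membrane, averaged 124 ± 9.11 against 141 ± 3.34 FPKM, a difference of -0.20 ± 0.07. It was the only one of 15 lamina and nuclear membrane genes to reach the limit. Leaving out replicate number 2 or 4 took IPO8, RANBP1 and TMPO above the limit, as did leaving out C2 or C6 for RANBP1, C2, C4 or C5 for TMPO, and any clone but C5 for IPO8. Of 16 mRNA export genes none reached it, PCID2 coming nearest with -0.37 ± 0.16. PCID2 is also on chromosome 13, and it too was low in C5 and C6 (25.4 and 29.5 FPKM) and not in C3 (41.3 FPKM).

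Over all genes the classes were hardly set apart. No gene passed an adjusted p of 0.05 with limma (0.0% of those tested, smallest adjusted p 0.80), and a fit with clone as a random block over the 24 libraries passed 4. That fit used 1 correlation of 0.0839 for all genes, and so treated the libraries of a clone as close to independent. With the clone as the unit, 761 genes had an unadjusted p under 0.05. An unadjusted p under 0.01 was reached by 117 (0.887%), 80 of them higher (0.607%) and 37 lower (0.281%) in the import-defect clones. With median-ratio scaling, which moved the median of all genes from 0.0326 to -0.00583, this split turned to 50 higher of 113. Only 3 genes combined p under 0.01 with a difference over 2-fold (0.0228%), of which 1 was higher (0.00758%) and 2 were lower (0.0152%). The 3 clone means of one class lay wholly above those of the other for 1589 genes (12.1%), 1117 of them higher (8.47%) and 472 lower (3.58%) in the import-defect clones. With 20 arrangements of the clones such separation has an exact permutation p of 0.1, so about that share of genes would reach it with no class difference. This count was not repeated with median-ratio scaling. A single gene, UHMK1, had all 12 libraries of one class above all 12 of the other (0.00758%).

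STXBP2, which encodes a binding partner of syntaxins in membrane fusion, was the most regular of the 3 called genes. It is on chromosome 19 (chr19:7636772-7647873, plus strand). C3 held 8.51, 11.4, 6.33 and 11.2 FPKM, C5 held 6.22, 10.5, 3.18 and 7.18, and C6 held 7.06, 8.87, 6.25 and 12.1. C1 held 11.6, 19.4, 9.41 and 14.5 FPKM, C2 held 22.8, 18.7, 16.4 and 18.6, and C4 held 18.8, 23.2, 15.2 and 19.2. C2 and C4 lay above every import-defect library and C1 overlapped them. The difference was -1.01 ± 0.18 (limma, adjusted p = 0.80), it had the same sign in the libraries of each replicate number, and it fell below 2-fold without C2, C4 or C5, at -0.93, -0.94 and -0.88. The unedited lines differed more than the classes did: WT averaged 3.84 ± 1.26 FPKM and EV 23.6 ± 3.00 (SD, n = 4 libraries).

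The other called genes rested on values that were present in some libraries and listed at 0 in others. AC000041.8, an unprocessed pseudogene on chromosome 22, held 33.9, 42.1, 56.1 and 39.3 FPKM in C3, 21.2, 59.5, 0.0 and 20.9 in C5, and 37.2, 19.0, 17.8 and 65.4 in C6. In C1 it held 0.0, 44.3, 0.0 and 19.3 FPKM, in C2 0.0, 0.0, 19.99 and 0.0, and in C4 15.6, 0.0, 0.0 and 19.5. A pseudogene shares sequence with its parent, so how its reads were assigned is uncertain. LUZP6 was above 0 in 1 library of each of C1, C2 and C4, at 13.7, 5.36 and 73.2 FPKM, and was listed at 0 in all other clone libraries. It lost p under 0.01 without replicate number 1 or 4, with differences of -0.73 and -0.69. The smallest p of all belonged to an entry for RN7SK, the 7SK small nuclear RNA, which is listed under 2 gene IDs that share 328 of 331 bases on chromosome 6. One entry was higher (log2 difference 0.93) and the other lower (-0.91), both lost p under 0.01 without replicate number 2 or 4, and their sum differed by 0.136, with 5.22 to 17.0 FPKM in the import-defect libraries and 5.97 to 13.7 in the others.

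Of the genes at p under 0.01, the named ones that were higher in the import-defect clones had varied roles. KCNH5, a voltage-gated potassium channel, averaged 3.67 ± 0.652 against 1.75 ± 0.105 FPKM, a difference of 0.77 ± 0.14. WT and EV stood at 3.35 and 3.32 FPKM, with the import-defect clones. B4GALT6, which makes lactosylceramide, averaged 17.4 ± 2.95 against 10.2 ± 0.628 FPKM, and here WT and EV, at 10.1 and 10.9 FPKM, stood with the other clones. DMKN, a secreted epidermal protein, averaged 66.4 ± 16.8 against 38.6 ± 4.93 FPKM, with 65.8 in WT. UHMK1, a serine/threonine kinase with an RNA-binding U2AF homology motif, ran from 19.3 to 24.9 FPKM in the 12 import-defect libraries and from 14.1 to 18.7 in the other 12, without overlap, for a difference of 0.33 ± 0.08. WT ranged over both, from 16.1 to 22.7 FPKM. NAV3, METTL7B, SH2D3A, SEZ6L2 and the guide RNA SCARNA12 differed by 0.74 to 0.99 on the log2 scale.

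Those lower included OPLAH, the oxoprolinase of the glutathione cycle, at 7.79 ± 1.18 against 13.3 ± 0.687 FPKM, a difference of -0.69 ± 0.11. RENBP, which interconverts N-acetylglucosamine and N-acetylmannosamine, averaged 2.35 ± 0.836 against 4.28 ± 0.743 FPKM. DLEU2, a long noncoding RNA, and UBL3, a membrane-anchored ubiquitin-like protein, were lower by -0.65 each and lie on chromosome 13, and RENBP lies on the X chromosome. The lncRNAs RP5-1061H20.4 and RP1-170O19.23 differed by -0.78 and -0.76. Over the 117 genes at p under 0.01 the WT mean lay nearer to the import-defect clones for 79 genes and nearer to the other clones for 38, and the EV mean split 67 to 50.

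The largest differences whatever their p, beside AC000041.8, varied among the clones of a class. DLK1, a Notch-ligand-like protein of progenitor cells, stood at 6.63 and 3.65 FPKM in C5 and C6 but 57.6 in C3, against 38.6 to 105 in the others and 5.72 in WT. ABCB1, the P-glycoprotein drug pump, stood at 14.5 and 27.9 FPKM in C5 and C6, 2.63 in C3 and 1.53 to 3.96 in the others. LRRC7, a scaffold of neuronal synapses, followed the same split with 11.3 and 6.11 FPKM against 0.541 in C3 and 0.0359 to 1.35 in the others. CADM1, a cell adhesion molecule, was lowest in C3, at 0.242 FPKM, against 2.596 and 5.57 in C5 and C6 and 3.89 to 14.5 in the others. TCEAL9 was high in C4, with 55.7 FPKM against 0.237 to 8.11 in the other clones. In all 39 genes differed by more than 2-fold between class means (0.296%), and 34 of these fell below 2-fold when 1 clone was left out, C6 in 18 of them. In 10 of the 39 genes the 3 clone means of one class lay wholly apart from the other 3.

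C3 and C5 differed by more than 2-fold in 302 genes, C3 and C6 in 462, and C5 and C6 in 409. C1, C2 and C4 differed from one another in only 62 to 96 genes. C3 was nearest to C4 (72 genes), then to C1 (76 genes), and it was the clone nearest to WT (78 genes, against 130 to 494 for the other clones). C6 was the farthest clone from each of the other 5. WT and EV differed in 37 genes. The median share of a gene's variation among the 24 libraries that lay between the classes was 3.58%, with 20.1% between clones of a class and 72.6% between libraries of a clone, a share that includes 24.2% between replicate numbers. The split gives the classes 1 of 23 degrees of freedom, clones of a class 4 and libraries of a clone 18, of which replicate numbers take 3. Unequal shares thus arise with no difference at all, and the shares do not rank the sources.

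**Figure D2:**
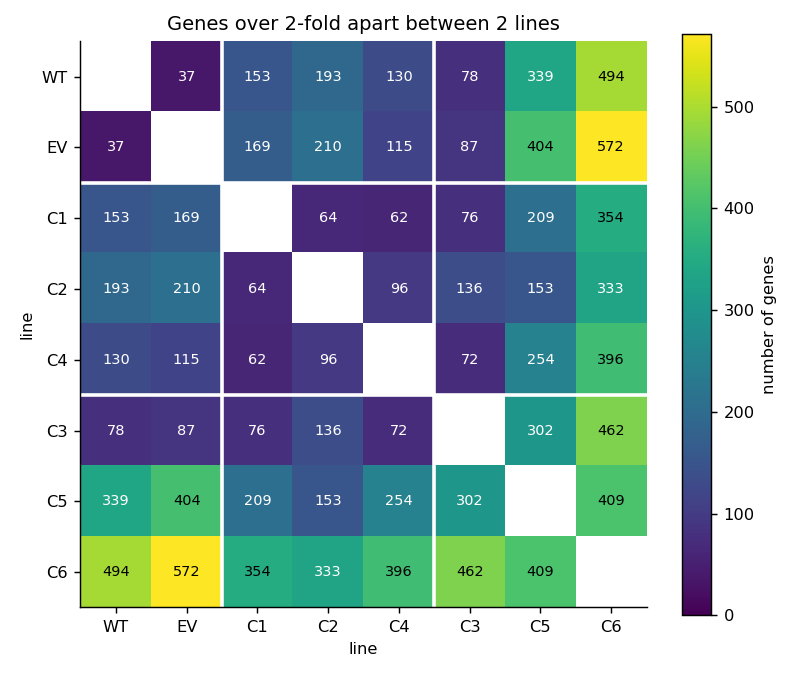
Number of genes of 13186 whose mean log2(FPKM + 1) differs by more than 1 (2-fold) between each pair of HAP1 lines, with the color scale in genes. White lines part WT and EV, the clones not scored as having an import defect, and the import-defect clones. The block of C3, C5 and C6 holds 302 to 462 genes, the block of C1, C2 and C4 holds 62 to 96, and C3 differs from C1, C2 and C4 in 72 to 136.

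Leaving C3 out changed the comparison more than leaving out any other clone. C5 and C6 against C1, C2 and C4 gave 785 genes at an unadjusted limma p under 0.01 (5.95%), and 65 of them were over 2-fold (0.493%), although none passed an adjusted p of 0.05 (smallest 0.0632). Of the 785 genes 114 were on chromosome 13, 113 of them lower, which is 47.9% of that chromosome's tested genes. Leaving out C1, C2, C4, C5 or C6 gave 42, 46, 61, 98 and 126 genes. C3 took no part in choosing the 785 genes, and in 714 of them its mean lay nearer to C1, C2 and C4 than to C5 and C6. For the 65 genes over 2-fold this count was 61. WT was likewise nearer to C1, C2 and C4 in most, lying nearer to C5 and C6 in 141 of the 785 genes, and EV in 128. When another clone was left out, it lay on the side of its own class for 61.9% to 65.2% of the genes chosen without it (C1, C2 and C4) or for 43.9% and 47.6% (C5 and C6).

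**Figure D3:**
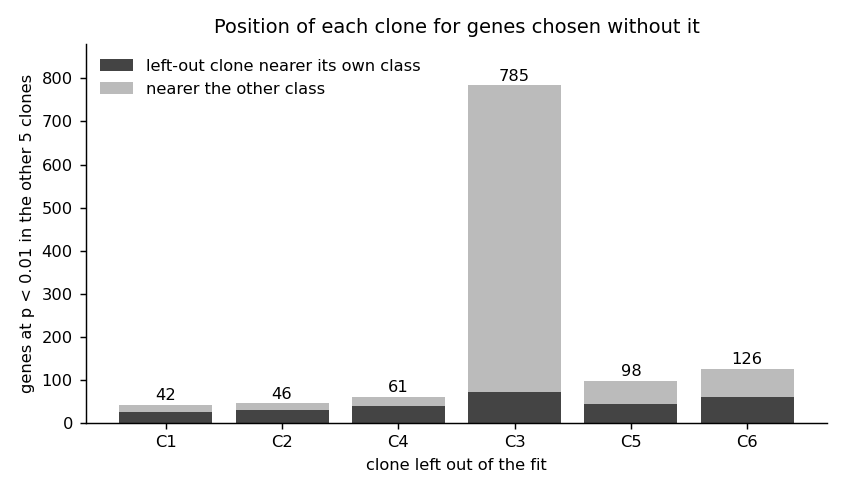
Number of genes at an unadjusted limma p under 0.01 between the classes when each clone is left out of the fit (bars, totals above), split by whether the left-out clone's mean lies nearer to its own class or to the other. Without C3 there are 785 such genes and C3 lies with the other class in 714 of them.

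The genes given here are among those that set C5 and C6 apart with the smallest p, and they were singled out after their values were seen. HMGN5 and SULF2 had a smaller p than CCND1 and are not described. SERPINF1, the secreted serpin PEDF, averaged 10.2 and 13.9 FPKM in C5 and C6, 97.5 in C3 and 56.6 to 83.8 in C1, C2 and C4, the mean of C5 and C6 lying below that of C1, C2 and C4 by a difference of -2.35 ± 0.24 (limma, adjusted p = 0.0632). ASS1, argininosuccinate synthase, averaged 34.2 and 34.5 FPKM against 79.5 in C3 and 104 to 189 in the others. CCND1, cyclin D1, averaged 18.9 and 22.6 FPKM against 5.33 in C3, 6.27 to 8.24 in the others and 2.36 in WT. TPD52L1 averaged 21.3 and 21.7 FPKM against 8.80 in C3 and 8.81 to 13.01 in the others. In each of these genes C3 lay nearer to C1, C2 and C4 than to C5 and C6. The limma adjusted p was 0.0632 for ASS1, CCND1 and TPD52L1 as well.

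Chromosome 13 stood out in C5 and C6. Of its 238 tested genes 38 were lower in the import-defect clones at an unadjusted limma p under 0.05 (16.0%, beside 1.68% of all genes), and the median difference was -0.275. Among genes with a mean log2(FPKM + 1) over 2, the clone C6 lay below WT by a median of -0.535 both before POMP (37 genes) and from POMP to the end of the chromosome (149 genes). C5 lay above WT by a median of 0.492 in the first stretch, where 35 of 37 genes were higher, and below it by -0.706 in the second, where 146 of 149 were lower. C3 lay at 0.0732 and 0.000152. The change of sign in C5 fell between PAN3 (chr13:28138506-28295335) and POMP (chr13:28659065-28678959), with 0.41 and -0.98, a boundary read from these values. NUP58 sits in the first stretch, and the 5 other genes within 1 Mb of it lay at a median of 0.449 above WT in C5 and -0.555 below it in C6, while NUP58 itself was lower than in WT in both clones. KPNA3, IPO5, PCID2, DLEU2, UBL3 and SLC7A1 lie in the second stretch. The X chromosome stood at a median of -0.548 in C5 alone, with -0.444 in its first 60 Mb, 0.0782 from 60 to 100 Mb and -0.849 after that, and the first 40 Mb of chromosome 6 at -0.762 in C6 alone, the other clones lying at -0.0705 to 0.0462 over the X chromosome and at -0.0747 to 0.00691 there. The part that these shifts play in the class differences was not tested beyond leaving out chromosomes 13 and X and the mitochondrial genes, after which 118 of 12480 genes reached p under 0.01.

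**Figure D4:**
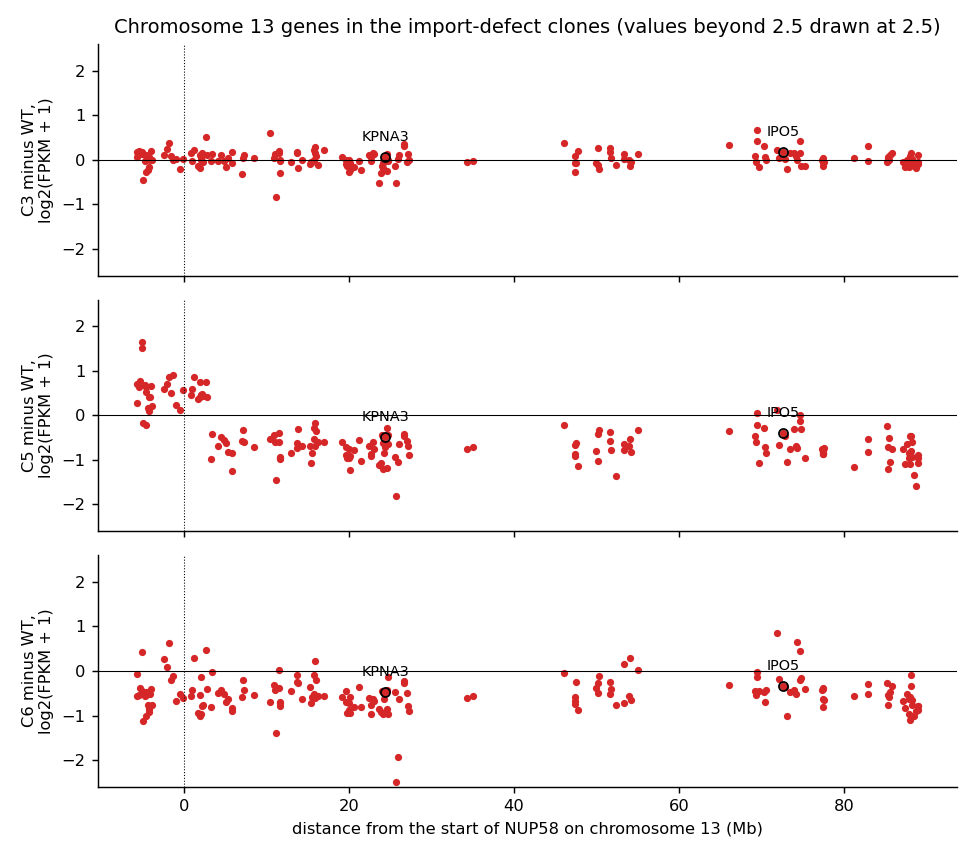
Difference from WT in log2(FPKM + 1) of 186 chromosome 13 genes in C3, C5 and C6, plotted against the distance in Mb of each gene's start from that of NUP58 (dotted line, NUP58 itself not drawn). C3 lies around 0, C5 lies mostly above 0 up to about 3 Mb past NUP58 and mostly below 0 from there on, and C6 lies below 0 in 172 of the 186 genes.

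Of the lists, all chosen with earlier results of these data known, that of ATF4 targets had the most members at the limit. ATF4 is a transcription factor whose translation rises when amino acids run short or proteins misfold, and it switches on amino acid synthesis and uptake by binding, with C/EBP partners, the C/EBP-ATF response element TGATGNAA. All 21 tested members were lower in the import-defect clones, with a median log2 difference of -0.288, and 8 of 21 reached an unadjusted limma p of 0.05 (beside 1.68% of all genes lower). These were ATF5, TRIB3, SESN2, SLC7A1, CEBPG, PSAT1, SLC3A2 and DDIT3. The element occurs on either strand in the window from 250 bases before to 50 after the transcription start in 5 of 18 members with a RefSeq promoter, beside 3.67% of all RefSeq promoters and 1.39% of the promoters of tested genes. The 5 matches are shown, 5′ to 3′ on the strand of the match with the element in capitals, because these are the members whose promoters hold it. Of these 5 members SLC3A2 and SLC7A1 are among the 8 at the limit, and ASNS, CHAC1 and ATF3 are not. A match describes the letters in this window and is not a measured binding site.
ASNS: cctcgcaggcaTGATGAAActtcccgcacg
CHAC1: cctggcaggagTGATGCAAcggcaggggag
ATF3: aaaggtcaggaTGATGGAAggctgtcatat
SLC3A2: ggagcTGATGTAAggagtcctgcacattac
SLC7A1: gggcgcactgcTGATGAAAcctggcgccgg
They lie at chr7:97872458-97872487 (minus strand, ASNS), chr15:40953251-40953280 (minus, CHAC1), chr1:212565205-212565234 (plus, ATF3), chr11:62881719-62881748 (minus, SLC3A2) and chr13:29595663-29595692 (minus, SLC7A1) in GRCh38.

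The difference in ATF4 targets was largest in the libraries with replicate number 2 and turned in those with number 4. In the libraries numbered 2 all 21 members were lower in the import-defect clones, with a median difference of -1.21. Relative to the WT mean, C1, C2 and C4 stood there at 1.79, 1.75 and 1.21 and C3, C5 and C6 at 0.249, 0.574 and 0.116. WT itself stood there at 0.532 and EV at 0.0499, nearer to the import-defect clones. The median difference was -0.303 in replicate 1, where C2 stood at 0.838 relative to the WT mean and the other 5 clones at -0.0852 to -0.0303. It was 0.00484 in replicate 3 and 0.391, with 19 of 21 higher, in replicate 4. Leaving out replicate 2 the median was 0.0633. ASNS, asparagine synthetase, held 451, 428 and 434 FPKM in the replicate 2 libraries of C1, C2 and C4, against 154, 218 and 143 in those of C3, C5 and C6. In replicate 4 the order turned, with 38.1, 39.8 and 37.5 FPKM in C1, C2 and C4 against 39.8, 97.2 and 214 in C3, C5 and C6. Its class difference over all libraries was -0.11 ± 0.22, and WT alone ran from 45.1 to 251 FPKM. CHAC1, which breaks down glutathione, reached 182, 131 and 111 FPKM in the replicate 2 libraries of C1, C2 and C4 against 24.5, 56.7 and 12.3 in the import-defect clones. ATF5, a transcription factor of the same family, held 128, 242 and 38.0 FPKM there against 10.6, 10.1 and 12.1, and elsewhere ran from 9.46 to 29.7 in the import-defect clones and from 13.2 to 27.9 in the others. Its difference of -0.86 ± 0.20, among those at p under 0.01, became -0.09 ± 0.27 without replicate 2 and no longer reached p of 0.05. SLC7A1, the cationic amino acid transporter, kept a negative difference in every replicate number, from -1.33 to -0.08, and is among the chromosome 13 genes.

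**Figure D5:**
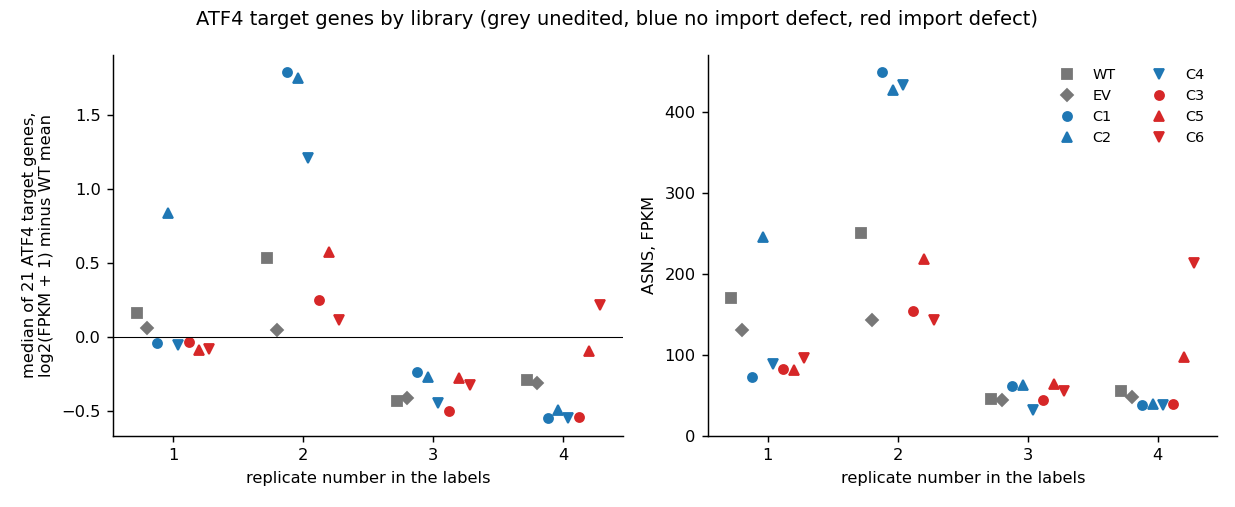
Left, median over 21 ATF4 target genes of log2(FPKM + 1) minus the WT mean, right, FPKM of ASNS. Each of the 32 HAP1 libraries is drawn by the replicate number in its label. Grey marks WT and EV, blue the clones not scored as having an import defect, and red the import-defect clones. In replicate 2 the blue clones lie at 1.21 to 1.79, the red at 0.116 to 0.574, WT at 0.532 and EV at 0.0499. In replicates 1 and 3 blue and red overlap, and in replicate 4 C5 and C6 lie above the blue clones.

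Of 18 genes of the endoplasmic reticulum stress response 3 were lower at p of 0.05, beside 1.68% of all genes. HERPUD1, a membrane protein that helps clear misfolded proteins, differed by -0.41 ± 0.08, with -1.55 in replicate 2, with -0.42, 0.14 and 0.21 in replicates 1, 3 and 4, and -0.02 when replicate 2 was left out. The other members at the limit, XBP1, a transcription factor of this response, and EDEM1, which marks misfolded glycoproteins for degradation, went from -0.30 and -0.28 to -0.07 and -0.12 without replicate 2. Of 18 genes of cholesterol synthesis none reached p of 0.05, and their median difference was 0.757 in replicate 2 against -0.152, -0.154 and -0.207 in the others, MSMO1, a sterol oxidase, showing 1.31 in replicate 2. Of 16 heat shock genes and 28 cell cycle genes none reached the limit, HSPA4L (0.34 ± 0.15) and BUB1B (0.18 ± 0.08) coming nearest. Among 19 p53 targets GDF15, a stress cytokine, was lower at -0.53 ± 0.20, at 0.310 to 0.948 FPKM in the import-defect clone means and 1.53 to 1.71 in the others, and it lost the limit without replicate 2 (-0.31). None of 10 interferon-stimulated genes reached the limit, IRF7 being nearest with 0.31 ± 0.21.

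Of 17 genes of the extracellular matrix and adhesion 3 were higher at p of 0.05 and none lower, beside 4.1% higher and 1.68% lower among all genes. COL1A1, the main chain of type I collagen, averaged 8.23 ± 1.69 against 4.82 ± 0.535 FPKM, a difference of 0.66 ± 0.15, and LAMB1, a laminin chain, 3.19 ± 0.490 against 1.53 ± 0.440 FPKM, a difference of 0.69 ± 0.19. WT, at 6.90 and 4.09 FPKM, lay nearer to the import-defect clones in both. Of 25 developmental transcription factors 2 were higher at p of 0.05, near the share of all genes, HOXC6 by 0.50 ± 0.15 and TBX3 by 0.31 ± 0.12. All 13 mitochondrially encoded genes were higher, as were 7820 of all 13186 genes, with a median difference of 0.215, and 2 of them reached p of 0.05, beside 4.1% of all genes higher. MT-ND3, a subunit of complex I, averaged 3124 ± 152 against 2573 ± 219 FPKM, and WT stood at 3345. All 6 clones lay below WT for this list, by medians of -0.345, -0.536 and -0.351 in C3, C5 and C6 and of -0.436, -0.599 and -0.767 in C1, C2 and C4, so that the classes overlapped.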

How the data were processed

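RNA was sequenced from 32 HAP1 libraries, of which the 24 of clones C1 to C6 entered the comparison and the 8 of WT and EV were set beside it. The 15 HCT116 libraries, 2 of which carry conflicting labels, were not used. The deposited table holds FPKM for 57507 genes, which the authors computed with RSEM after STAR alignment to GRCh38, with no further normalization between libraries. Read totals are not given in the sources used here, and FPKM steps gave only relative depth. Clone means of log2(FPKM + 1) were compared with limma 3.58.1 and a mean-variance trend, 3 clones against 3, with Benjamini-Hochberg adjustment over 13186 genes. Genes were called at p under 0.01 with a fold over 2, and separately at adjusted p under 0.05. For NUP58, KPNA4, KPNB1, TNPO1 and TNPO2 an exact two-sided permutation test over clone means was used, and limma under the alternatives.

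The clones are separate single-cell lines, and the study calls the 4 libraries of a clone biological experiments, without saying that equal replicate numbers in the labels mark a shared one. No 2 HAP1 libraries were identical. Of the tested genes 99.2% had a position in GENCODE release 44. The 24 gene lists, the members and the tests were chosen with earlier results of these data known, so no list was tested. Genes were named by rule: NUP58, NUP54, NUP62, KPNA4, KPNB1, TNPO1, TNPO2 and ASNS, then the 10 higher and 10 lower genes with the largest difference at p under 0.01, genes whose libraries did not overlap, the 3 largest differences each way, transport genes at p under 0.05, and the smallest p of every other list. Promoter sequences are from RefSeq (GRCh38.p14). The fitting step was tested on simulated data. Other filters, scalings, units of analysis, and the removal of each clone, library and replicate number were tried.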

Additional observations from a re-analysis of the deposited data

Results flagged for a closer look

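Among 318 groups of 4 libraries (52 named genes and the ATF4 list median, in 6 clones), 31 had a highest or lowest library standing apart by Dixon's test (9.75%), where chance flags about 1 in 20. Of these libraries 15 carry replicate number 2, 4 carry 1, 5 carry 3 and 7 carry 4. In replicate 2, ATF5 stood high in C1 (128 FPKM against 17.8 to 25.1 in the other 3 libraries of the clone) and C2 (242 against 13.2 to 21.9) and low in C3 (10.6 against 26.8 to 29.7). In the same libraries HERPUD1 stood high in C1 (140 FPKM) and GDF15 in C2 (5.99 FPKM against 0.205 to 0.445). KPNB1 and TNPO1 stood low in C4 (152 against 298 to 324 FPKM, and 52.7 against 72.6 to 74.7). KPNA3 stood low in C5 (19.96 FPKM) and C1 (33.3), IPO5 in C2 (156), TMPO in C5 (93.0) and C4 (103), BUB1B in C2 (48.9), HOXC6 in C1 (1.83) and NAV3 in C5 (6.25 FPKM).

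In the other replicates, LUZP6 was above 0 in replicate 4 of C1 (13.7 FPKM) and C2 (5.36) and in replicate 1 of C4 (73.2), and AC000041.8 in replicate 3 of C2 (19.99 FPKM). The RN7SK entries stood apart in replicate 3 of C6, at 0.0015 and 5.74 FPKM, and the second of them in replicate 4 of C5 at 15.3. SCARNA12 was low in replicate 4 of C5 (1.24 FPKM), RP1-170O19.23 high in replicate 3 of C6 (5.58), LRRC7 high in replicate 1 of C2 (2.00), DLK1 low in replicate 3 of C2 (27.8) and TMPO low in replicate 1 of C2 (125). PCID2 was high in replicate 4 of C5 (27.5 FPKM), MSMO1 high in replicate 4 of C6 (94.7), and MT-ND3 high in replicate 4 of C6 (4639) and low in replicate 1 of C4 (1673).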

How the results depend on the processing

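Of 2662 values recomputed under another choice, 2395 were scored as unchanged, by a rule that differed with the kind of value. A single gene had to keep its sign and its side of an unadjusted p of 0.05. Counts had to stay within a set fold of the main count, and shares of variation within their quartiles over genes. A list median had only to move by no more than the SD over replicate numbers, whatever its sign. The central channel nucleoporins, for instance, went from -0.0283 to 0.0462 without C3 and were scored as unchanged. Where the cause of a change is not plain from the alternative's construction, it was not tested. The 3 called genes became 15 with a pseudocount of 0.1, 8 after TPM scaling and 12 with the log2 of the clone mean, and the 117 genes at p under 0.01 became 268 with no filter on low FPKM. With libraries in place of clones as the unit, which treats the libraries of a clone as independent, 34 genes were called, 702 passed an adjusted p of 0.05 in limma and 1168 had p under 0.01. The same fit with a replicate block gave 34, 1298 and 1684, and clone as a random block (correlation 0.0839) gave 24, 4 and 434. The replicate numbers took a median of 24.2% of a gene's variation. They were not treated as pairing the libraries, since no label says that a number marks a shared experiment. Deviations of same-numbered libraries correlated above 0.1 in 26 of 36 cases, from -0.41 to 0.742, and in all 4 numbers for 2 of 9 clone pairs. This limit is not a test of pairing, and whether equal numbers mark a shared experiment is not known. Median-ratio scaling moved the median of all genes from 0.03 to -0.00583, made 50 of 113 genes at p under 0.01 higher in place of 80 of 117, and took KPNB1 past an unadjusted 0.05 at -0.174.

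Leaving out clones, replicate numbers or libraries gave 2 to 65 called genes and 42 to 785 at p under 0.01, both highest without C3. Differences ranged from -0.167 to 0.484 for NUP58, -0.0687 to 0.0462 for NUP54, -0.0107 to 0.171 for KPNA4, -0.216 to 0.0108 for KPNB1, -0.0267 to 0.126 for TNPO1, -0.0727 to 0.145 for TNPO2, -0.567 to 0.312 for ASNS and -0.0579 to 0.427 for MSMO1. List medians ranged from -0.107 to 0.06 for exportins, 0.0346 to 0.183 for developmental transcription factors and 0.142 to 0.366 for HCT116 markers. The median number of genes apart (within import-defect clones, within the others, between classes) was 766, 217 and 512 with a pseudocount of 0.1, and 1420, 277 and 1033 at a fold of 1.5.

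Fits on the libraries of 1 replicate number, chosen after seeing the data, called 25, 92, 11 and 44 genes for numbers 1 to 4, with 3 (number 2) and 1 (number 4) at adjusted p under 0.05 in limma, and 349 (number 2) and 62 (number 3) at p under 0.01. The ATF4 median was -1.21 and the cholesterol median 0.757 in number 2, and KPNB1 was -0.558 in number 4. The sign turned in number 1 for NUP54 (0.093), KPNB1 (0.0795), an RN7SK entry (-0.0508), ATF5 (0.288), MSMO1 (-0.109), COL1A1 (-0.216), CLDN3 (-0.309) and TAL1 (0.164), and in number 2 for NUP62 (0.0545) and KPNB1 (0.00593). In number 3 it turned for KPNA4 (-0.0718), TNPO1 (-0.0127), TNPO2 (-0.041), ASNS (0.0962), SCARNA12 (-0.00167), the RN7SK entries (-1.3 and 0.781), ATF5 (0.0853), HERPUD1 (0.135) and MSMO1 (-0.151), and in number 4 for NUP58 (-0.185), KPNA4 (-0.0543), TNPO1 (-0.201), TNPO2 (-0.055), ASNS (1.27) and HERPUD1 (0.215). Depth in reads is not known, so no counting interval was given.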
